A study of Mus musculus with 48 samples.

Results

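The miRNAs of cells washed out of the mouse airways by bronchoalveolar lavage were compared with those of brushings of the lung epithelium, in mice without an allergic airway response. All 7 non-allergic lavage cell libraries were set against all 3 non-allergic brushing libraries, 10 of the 48 small RNA libraries of the series, and all miRNA entries of the count tables were used. The libraries were chosen by their labels alone, not by any measured value. Every mouse was of the C57BL/6 strain. The lavage cells came from 3 libraries of untreated mice and 4 libraries of immunized mice, and the brushings from 1 library of untreated mice and 2 libraries of immunized mice. Untreated mice received nothing. Immunized mice were injected into the peritoneum each week for 3 to 4 weeks with 50 ug of ovalbumin in 100 ul of phosphate-buffered saline (PBS) plus 100 ul of Imject alum. The airway challenge began 7 days after the final injection, as 20 ul of PBS without ovalbumin by oropharyngeal aspiration on 3 days, and sampling was on day 4. Lavage was done with 1 ml of PBS and the cells were the pellet of a 5 minute spin at 500 g, which the labels call rich in hematopoietic cells. Each brushing library pooled RNA from 1 to 3 mice. Library preparation used 20 to 65 ng of total RNA and a 3′ adapter carrying 5 random bases. No label states if separate mice gave the libraries, and p-values therefore reflect the spread among these libraries alone, which may be technical.

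The airspaces of an unchallenged mouse hold mainly alveolar macrophages, resident phagocytes of the blood cell lineage, while a brush takes up the lining of the conducting airways, with its ciliated, secretory and basal cells. A miRNA is a short RNA that guides Argonaute proteins to messenger RNAs, mainly through its seed, the bases 2 to 8 counted from the 5′ end, and miRNAs with the same seed form a family with largely shared targets. Several miRNAs are closely tied to a cell lineage, such as miR-223 and miR-142a to blood cells, miR-200 to epithelium and miR-34b/c and miR-449 to multiciliated cells.

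The mature sequences on which the results turn are printed 5′ to 3′, with the seed in capitals, as RefSeq gives them with the GRCm38.p6 assembly. A RefSeq mature sequence was matched to 234 of the 271 tested entries. The first set is of miRNAs made from introns of the genes Mrc1 and Htr2c, each of which had 7 counts or fewer over the 3 brushing libraries.
miR-1298-5p: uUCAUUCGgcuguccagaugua
miR-1264-3p: cAAAUCUUauuugagcaccugu
miR-764-5p: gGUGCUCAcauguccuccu
miR-448-3p: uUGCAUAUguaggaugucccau
miR-511-3p: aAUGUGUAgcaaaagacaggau
The second set holds miRNAs of known cell lineages, first of blood cells (miR-223-3p, miR-142a-3p, miR-342-3p and the red cell miRNA miR-451a), then of epithelium, and last of mesenchyme (miR-199a-5p) and endothelium (miR-126a-3p).
miR-223-3p: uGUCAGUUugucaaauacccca
miR-142a-3p: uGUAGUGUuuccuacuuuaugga
miR-342-3p: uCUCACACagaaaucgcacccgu
miR-451a: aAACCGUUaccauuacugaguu
miR-200a-3p: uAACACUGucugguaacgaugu
miR-141-3p: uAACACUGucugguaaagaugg
miR-200b-3p: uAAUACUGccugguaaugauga
miR-200c-3p: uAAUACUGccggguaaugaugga
miR-205-5p: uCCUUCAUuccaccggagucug
miR-199a-5p: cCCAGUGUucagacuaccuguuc
miR-126a-3p: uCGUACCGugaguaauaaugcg
The third set shows families whose members share a seed but were found on opposite sides of the comparison, or, for miR-146, differed widely in size of change.
miR-34a-5p: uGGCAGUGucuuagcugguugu
miR-34b-5p: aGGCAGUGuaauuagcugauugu
miR-449a-5p: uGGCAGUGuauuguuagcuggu
miR-15b-5p: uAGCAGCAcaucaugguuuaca
miR-322-5p: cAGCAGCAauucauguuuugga
miR-195a-5p: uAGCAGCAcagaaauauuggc
miR-497a-5p: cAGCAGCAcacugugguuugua
miR-130b-3p: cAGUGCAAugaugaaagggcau
miR-130a-3p: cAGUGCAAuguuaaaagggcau
miR-146b-5p: uGAGAACUgaauuccauaggcu
miR-146a-5p: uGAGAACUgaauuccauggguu

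Lavage cell libraries held 43083 to 207004 miRNA counts and brushing libraries 299701 to 654155. At these depths 3 counts are worth 14.5 to 69.6 CPM (counts per 1000000) in lavage cells and 4.59 to 10 CPM in brushings, so low levels were resolved less well in the cells. Levels below are CPM scaled with the TMM method, which rescales library totals by the bulk of shared entries, so the levels of a library can add up to more than 1000000. They are relative to the other miRNAs of the library and are not amounts per cell. In bulk samples such as these, fewer cells of a type and less of a miRNA per cell cannot be told apart. Across the 271 tested entries, log2 CPM correlated at r = 0.883 to 0.967 between lavage cell libraries, 0.976 to 0.988 between brushing libraries and 0.580 to 0.751 between a cell and a brushing library, a description across miRNAs that share depth and set. The median SD of log2 CPM was 0.591 over the cell libraries and 0.262 over the brushing libraries. In 1 cell library, immunized library 4, mesenchymal and endothelial miRNAs stood far above the other 6, and results that rest on it are given with and without it. Red cell miRNAs took 48.5% and 50.9% of the counts in 2 of the untreated cell libraries.

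Lavage cells and brushings differed in most of their measured miRNAs. Of 855 entries with a count in these libraries, 271 passed the filter on low counts. Of these, 192 passed edgeR's quasi-likelihood test at an adjusted p under 0.05, 70.8% of those tested. Such entries are said to be called, and 100 were higher in lavage cells (36.9%) and 92 lower (33.9%). Higher entries made up 52.1% of the called ones with TMM scaling, 43.4% with DESeq2 size factors and 44.6% with total counts. The ranges of the 7 cell and 3 brushing libraries did not overlap for 159 entries, with the cells above for 80 (29.5%) and below for 79 (29.2%). The counts of a list given below are to be read against these shares. Of the called entries 133 passed under every alternative that tested them, and none was called in the opposite direction under any. The median log2 fold change over all tested entries was 0.21 with TMM scaling, -0.03 with DESeq2 size factors and 0.03 with total counts, so small fold changes depend on the scaling. Untreated libraries were all in library set 2 and immunized libraries in sets 3 and 4, so the set term of the fit also takes up the treatment. Of the 192 called entries, 191 had the same sign in each of the 3 sets.

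**Figure D1:**
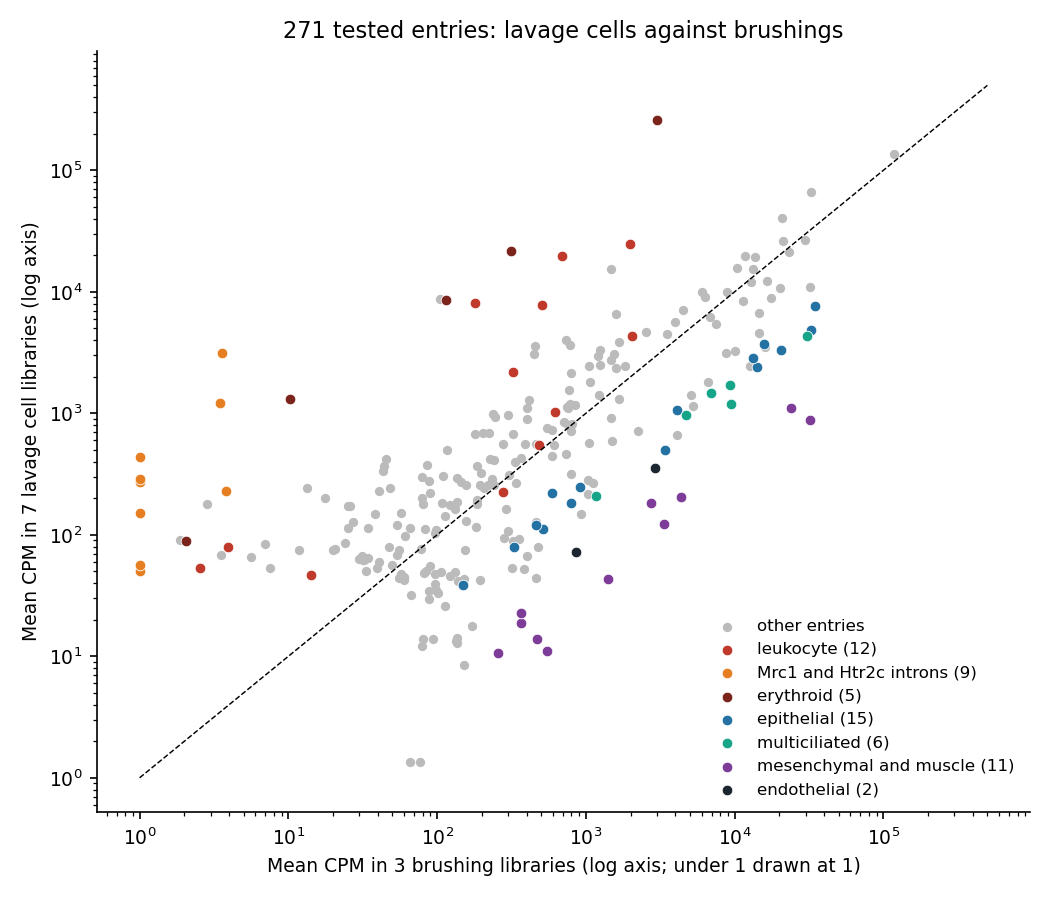
Mean level of each of the 271 tested entries in the 7 lavage cell libraries (vertical, CPM, log axis) against the 3 brushing libraries (horizontal, CPM, log axis), with 7 marker lists in colour and their number of tested entries in the legend. Points above the dashed line of equal level were higher in lavage cells; the leukocyte, erythroid and Mrc1 and Htr2c intron lists lie mostly above it, and the epithelial, multiciliated, mesenchymal and endothelial lists below it.

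The miRNAs with the highest fold changes came from introns of Htr2c, and a further one with a wide gap, miR-511-3p, from an intron of Mrc1. Mrc1 encodes the macrophage mannose receptor and holds miR-511 in an intron (mm10 chromosome 2, 14261003 to 14261081, plus strand). Htr2c encodes a serotonin receptor best known from neurons, and its introns hold miR-764, miR-1912, miR-1264, miR-1298 and miR-448 on the plus strand of chromosome X, from 147002259, where miR-764 starts, to 147158321, where miR-448 ends. Of the 12 entries from these introns 9 passed the filter, and all 9 were higher in lavage cells, with a median log2 fold change of 8.48 against 0.21 over all tested entries. An entry at 0 in brushings can pass the filter only through the cells, so this count is no support on its own.

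Of the Htr2c miRNAs, miR-1298-5p was the most abundant, at 860.3 CPM in the lowest, 3225 in the median and 5146 in the highest cell library, against 0, 3.30 and 7.43 CPM in the brushings of the untreated and the immunized mice. Every cell library was far above every brushing library. The log2 fold change was 9.58 (SE 0.75, edgeR adjusted p = 2.1e-06), from 2998 counts in cells and 7 in brushings, and 10.41 without the second immunized brushing library.
For miR-1264-3p the cells held 274 to 1750 CPM with a median of 1442, and the brushings 5.60, 3.30 and 1.49 CPM, a log2 fold change of 8.48 (SE 0.76, edgeR adjusted p = 3.8e-06). Its opposite strand, miR-1264-5p, lay at 142 to 747 CPM in cells with a median of 427, and no count fell on it in any brushing. Both strands of this hairpin were thus present in every cell library.
With no brushing count to divide by, folds were bounded against a floor of 3 counts over the 3 brushing libraries, which covers counting error only. By this bound miR-1264-5p was at least 246-fold higher in lavage cells, miR-764-5p at least 153-fold, miR-1912-5p at least 145-fold and miR-448-3p at least 75.8-fold. The weaker strands miR-1298-3p and miR-448-5p were at least 30.3-fold and 28.6-fold higher. Another 3 entries missed the filter, namely miR-1912-3p with 41 counts, miR-764-3p with 26 and miR-511-5p with 40 in cells, against 0, 0 and 3 counts in brushings.

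The Mrc1 miRNA, miR-511-3p, ran at 142 to 293 CPM in cells with a median of 264, and at 8.39, 0 and 2.97 CPM in brushings. The groups were far apart, at a log2 fold change of 5.97 (SE 0.65, edgeR adjusted p = 1.3e-05). The value was 6.80 without the untreated brushing library and 5.15 without the first immunized one. Together the 12 entries took 0.130% to 1.02% of the counts of a cell library and 0.00072% to 0.0023% of a brushing library. The lowest shares among the cells, 0.130% and 0.300%, were in the 2 untreated libraries in which red cell miRNAs took 50.9% and 48.5%.

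**Figure D2:**
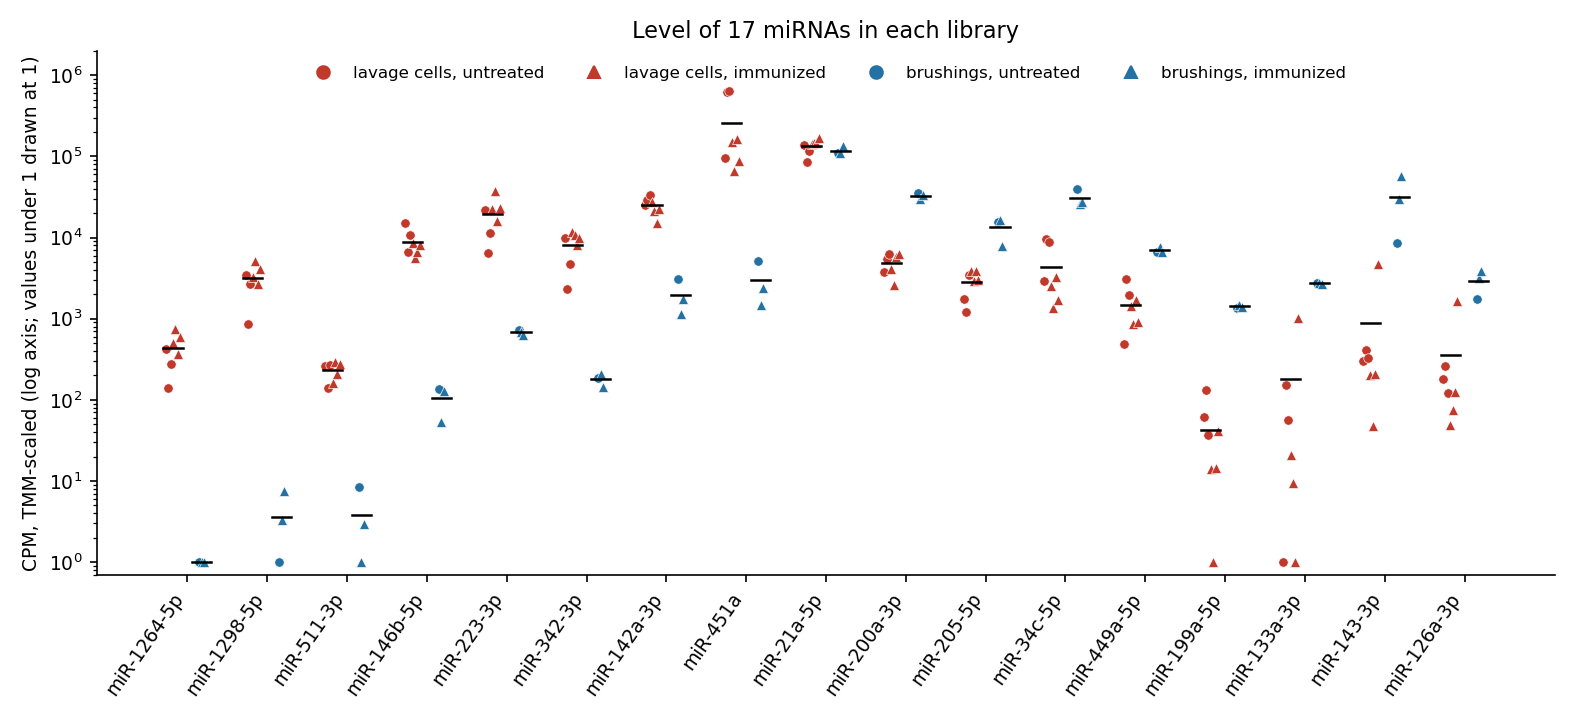
Level of 17 miRNAs in each library (CPM, log axis), with lavage cells in red on the left and brushings in blue on the right of each name, circles for untreated and triangles for immunized mice, and a bar at the group mean. The cells lie above the brushings for the first 8 miRNAs, both overlap for miR-21a-5p, and the cells lie below for the last 8; the single high red triangle of miR-133a-3p, miR-143-3p and miR-126a-3p is immunized cell library 4.

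Leukocyte miRNAs were higher in lavage cells for 10 of the 12 tested members of a list of 13, and lower for none, with a median log2 fold change of 3.19. Myeloid miR-223-3p, which restrains neutrophil and macrophage activation, stood at 6486 CPM in the lowest, 21779 in the median and 37116 in the highest cell library, against 730.2, 693.5 and 636 CPM in brushings. No cell library came near a brushing one, at a log2 fold change of 4.78 (SE 0.47, edgeR adjusted p = 5.5e-06). The pan-leukocyte miR-142a-3p had 15102 to 33788 CPM in cells, with a median of 25110, and 3044, 1138 and 1745 CPM in brushings. Its log2 fold change was 3.65 (SE 0.29, edgeR adjusted p = 2.1e-06), and that of its other strand miR-142a-5p was 3.97 (SE 0.32).
A wider gap was seen for miR-342-3p, made from an intron of Evl and known from B cells and macrophages. It held 2345 to 11713 CPM in cells, median 9752, against 185, 208 and 146 CPM in brushings, a log2 fold change of 5.49 (SE 0.51, edgeR adjusted p = 4.7e-06). For miR-150-5p, abundant in mature lymphocytes, the cells ranged from 717 to 3337 CPM, median 2101, and the brushings lay at 324.5, 318.7 and 331.5 CPM. The ranges did not overlap, at a log2 fold change of 2.74 (SE 0.44, edgeR adjusted p = 0.00019).
miR-181a-5p, a regulator of lymphocyte signalling, was 1.11 higher on the log2 scale (SE 0.23). The other 2 tested members were not called, miR-181b-5p at 0.16 (SE 0.25) and miR-155-5p at -0.42 (SE 0.44). The calls of miR-146a-5p and miR-147-3p were lost with DESeq2 size factors and with total count scaling, which left 8 of the 12. The number higher was 7 of 11 tested without untreated cell library 1, and 7 of 10 without immunized cell library 2 or 4. Fewer members passed the filter without these cell libraries. Members can thus pass through the cells, where they are high, so the count of 10 is no support on its own. Summed over its 13 entries the list took 3.93% to 9.82% of the counts of a cell library and 0.626% to 0.987% of a brushing library.

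The activation-induced list split along its members. miR-146b-5p, which with miR-146a dampens signalling from Toll-like receptors, was at 5562 to 15013 CPM in cells with a median of 8186, and at 134, 52.8 and 128 CPM in brushings. The ranges were far apart, and the log2 fold change was 6.36 (SE 0.43, edgeR adjusted p = 1.6e-06). miR-146a-5p, with the same seed but made from another gene, overlapped between 596 and 1326 CPM in cells and 685.5, 502 and 663 CPM in brushings. Its log2 fold change was 0.73 (SE 0.29, edgeR adjusted p = 0.042) with TMM scaling, and it was not called with DESeq2 size factors, with total counts or without any 1 of 6 libraries.
Of the 9 tested members 4 were higher in lavage cells and 0 lower with TMM scaling, but 1, miR-146b-5p, with either other scaling. Without any 1 of the 2 immunized brushing libraries or the first untreated cell library that count was also 1, and it was 2 without untreated cell library 3 or immunized cell library 1, 2 or 4. The number called lower was 1 with the DESeq2 test, without a filter and without immunized cell library 2. The most abundant miRNA of the brushings, miR-21a-5p, known from injury and inflammation, lay at 85863 to 169758 CPM in cells, median 141380, and at 109256, 109459 and 132595 CPM in brushings. The groups overlapped, and its log2 fold change of 0.23 (SE 0.15, edgeR adjusted p = 0.21) turned to -0.02 with DESeq2 size factors, while it was called at 0.29 without untreated cell library 2 (edgeR adjusted p = 0.019).
Outside the lists the highest entry was miR-551b-3p, at 101 to 289 CPM in cells, median 132, and 5.60, 0 and 2.97 CPM in brushings. Every cell library was above every brushing library, with a log2 fold change of 5.81 (SE 0.70, edgeR adjusted p = 2.7e-05), or 4.85 without the first immunized brushing library. This entry could pass the filter only through the cells, so the gap between the ranges is no support on its own. Of the 15 highest entries named by rule, 7 were from the Mrc1 and Htr2c introns and 4 were red cell miRNAs. The other 4 were miR-146b-5p, miR-342-3p, miR-223-3p and miR-551b-3p.

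Red cell miRNAs were prominent among the lavage cells. All 5 tested entries of the list were higher there, with a median log2 fold change of 5.95. miR-451a, which Argonaute 2 cuts from its hairpin during red cell maturation, held 65871 CPM in the lowest, 151892 in the median and 638403 in the highest cell library, against 5170, 1488 and 2359 CPM in brushings. It was higher by a log2 fold change of 6.13 (SE 0.80, edgeR adjusted p = 0.00023). The list took 8.16% to 50.9% of the counts of a cell library and 0.177% to 0.732% of a brushing library, and miR-451a was the most abundant entry of 4 of the 7 cell libraries. Red cell miRNAs moved with the compartment. With these entries left out before scaling, a choice made after the data were seen, 182 entries were called, 181 of them also called with red cell entries in, and the Mrc1 and Htr2c, epithelial and multiciliated counts were as before, while that of Dlk1-Dio3 entries lower in cells was 2 instead of 4.

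Epithelial miRNAs were lower in lavage cells for all 15 tested members of a list of 15, with a median log2 fold change of -2.09. The fold changes were close together, between -2.81 and -1.83. The miR-200 family, which holds epithelial identity by repressing Zeb1 and Zeb2, has 2 seeds and lies in 2 gene clusters, on mm10 chromosomes 4 and 6. miR-200a-3p was at 2582 to 6285 CPM in cells, median 5502, and at 35789, 29492 and 33036 CPM in brushings. Every cell library was below every brushing library, at a log2 fold change of -2.81 (SE 0.21, edgeR adjusted p = 2.1e-06). miR-200c-3p, from the other cluster and with the other seed, had 2753 to 5223 CPM in cells, median 3506, and 13776, 16549 and 17013 CPM in brushings. Its log2 fold change was -2.09 (SE 0.19, edgeR adjusted p = 3.8e-06), and the log2 fold changes of miR-141-3p, miR-429-3p and miR-200b-3p were -2.71, -2.57 and -2.20.
The basal cell miRNA miR-205-5p lay at 1201 to 3893 CPM in cells, median 2957, and at 15606, 16637 and 7925 CPM in brushings. The groups did not overlap, at a log2 fold change of -2.22 (SE 0.34, edgeR adjusted p = 0.00013). The miR-183, miR-96 and miR-182 cluster of sensory and secretory epithelia was lower by log2 fold changes of -1.93, -2.07 and -1.83, and miR-375-3p of secretory cells by -2.04. miR-31-5p was the 1 member whose ranges overlapped, with 220 ± 170 CPM in cells (SD, n = 7) and 591 ± 95.2 CPM in brushings (SD, n = 3), at -1.85 (SE 0.43). The list took 1.74% to 4.00% of the counts of a cell library and 14.7% to 17.2% of a brushing library, so epithelial miRNAs were present in every cell library.

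Multiciliated cell miRNAs were lower in lavage cells for all 6 tested members of a list of 7, with a median log2 fold change of -2.47. These miRNAs act on the cell cycle exit and centriole growth that precede cilia. miR-34c-5p held 1362 to 9605 CPM in cells, median 2925, and 39577, 25849 and 27120 CPM in brushings. The ranges were apart, with 2 untreated libraries the highest of the cells, at a log2 fold change of -3.23 (SE 0.37, edgeR adjusted p = 1.8e-05). miR-449a-5p, made from an intron of Cdc20b, had 488 to 3044 CPM in cells, median 1433, and 6689, 7612 and 6611 CPM in brushings, a log2 fold change of -2.31 (SE 0.42, edgeR adjusted p = 0.00044). The list took 0.513% to 1.44% of cell counts and 5.88% to 8.43% of brushing counts.

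**Figure D3:**
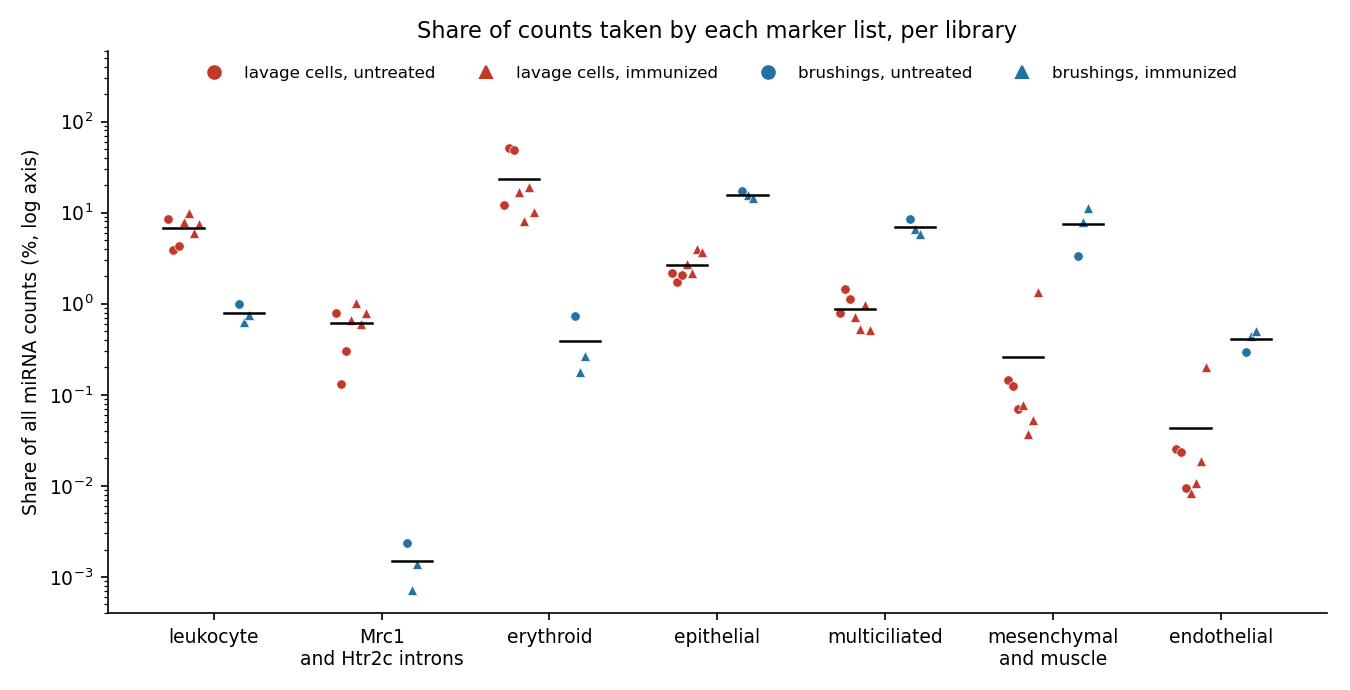
Share of all miRNA counts of a library taken by each of 7 marker lists (percent, log axis), with lavage cells in red on the left and brushings in blue on the right, circles for untreated and triangles for immunized mice, and a bar at the group mean. Cells and brushings are apart for every list; the highest cell points of the mesenchymal and endothelial lists, 1.33% and 0.203%, are from the same library.

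The largest deficits of the lavage cells were not in epithelial miRNAs. Of the 15 lowest entries named by rule, 11 were mesenchymal or muscle miRNAs and 2 were the strands of endothelial miR-126a, and the other 2 were miR-136-5p and miR-100-5p. All 11 tested entries of the mesenchymal and muscle list of 16 names were lower, with a median log2 fold change of -4.93, and both endothelial entries, with a median of -3.74. Without immunized cell library 4 these medians were -6.22 and -4.53, and without immunized brushing library 2 they were -5.64 and -4.48. They were smaller in size, at -4.39 and -3.26, without immunized brushing library 1. Without the untreated brushing library they were -5.11 and -3.90, and 10 of the 11 mesenchymal and muscle entries were called lower. These miRNAs are known from fibroblasts, muscle and vessel walls. Outside immunized library 4, miR-143-5p, miR-145a-3p and miR-133b-3p held at most 9.46 CPM in any cell library. Such entries could pass the filter only through the brushings, so the count of mesenchymal and muscle entries is no support on its own. In brushings the mesenchymal and muscle list took 3.31% of the counts in the untreated library and 7.92% and 11.2% in the immunized ones. In cells it took 0.0376% to 0.144% in 6 libraries and 1.33% in immunized library 4. The endothelial list took 0.00842% to 0.203% of cell counts and 0.297% to 0.503% of brushing counts.

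Fibroblast miR-199a-5p, made on chromosome 1 from an exon of Dnm3os as well as from chromosome 9, held 0 to 132 CPM in cells, median 37.3, and 1371, 1458 and 1412 CPM in brushings. The brushing levels were nearly equal, and every cell library was below them. The log2 fold change was -5.42 (SE 0.52, edgeR adjusted p = 4.8e-06), or -6.31 without the untreated brushing library. miR-214-3p of the same transcript was at -4.12 (SE 0.44).
Smooth muscle miR-143-3p ranged from 47.3 to 4663 CPM in cells, median 305, and lay at 8488, 29700 and 57852 CPM in brushings. Immunized cell library 4 was the highest of the cells, and the next held 416 CPM. The log2 fold change of -5.75 (SE 0.99, edgeR adjusted p = 0.0010) was -6.91 without that library, -4.81 without the first immunized brushing library, -6.40 without the second and -6.48 without the untreated one.
The ranges overlapped for its cluster partner miR-145a-5p, with 161 to 5669 CPM in cells and 5134, 30975 and 35277 CPM in brushings. It was called at -4.83 (SE 1.07, edgeR adjusted p = 0.0040), and at -6.22 without immunized cell library 4, -5.69 without the untreated brushing library, -3.75 and -5.53 without immunized brushing libraries 1 and 2, but not with immunized libraries alone (-5.65, edgeR adjusted p = 0.062).
Striated muscle miR-133a-3p held 0 to 1029 CPM in cells, median 21.1, and 2770.0, 2777 and 2684 CPM in brushings. Immunized cell library 4 was the highest of the cells, and the next held 151 CPM. The log2 fold change of -4.93 (SE 1.30, edgeR adjusted p = 0.0099) was -6.63 without that library, -4.18 and -6.06 without immunized brushing libraries 1 and 2, and it was not called without the untreated brushing library (-4.92, edgeR adjusted p = 0.066) or with immunized libraries alone (-4.79, edgeR adjusted p = 0.15).
Endothelial miR-126a-3p, from an exon of Egfl7, held 49.2 to 1659 CPM in cells, median 125, and 1768, 3179 and 3867 CPM in brushings. Immunized cell library 4 nearly reached the untreated brushing library. The log2 fold change was -3.69 (SE 0.82, edgeR adjusted p = 0.0036), and -4.59 without that cell library, -2.94 without the first and -4.45 without the second immunized brushing library. With immunized libraries alone it was -4.06 and not called (edgeR adjusted p = 0.070). The part of mesenchymal and endothelial cells in the other differences was not tested. Without immunized cell library 4, 11 mesenchymal and muscle entries and 2 endothelial entries were called lower, the same counts as with it.

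Of the imprinted Dlk1-Dio3 cluster on chromosome 12, whose miRNAs are known from embryo and stroma, 4 of 32 entries with counts passed the filter, and all 4 were lower in lavage cells. They are near 0 in cells and could pass the filter only through the brushings, so this count is no support on its own, and it was 2 with red cell entries left out. The log2 fold changes of miR-411-5p, miR-136-3p, miR-136-5p and miR-127-3p were -5.66, -5.42, -4.23 and -3.35, and that of miR-136-5p was -5.09 without untreated cell library 2. The cluster took 0.0010% to 0.0179% of cell counts and 0.0795% to 0.128% of brushing counts, so it was near the floor in cells. Of a liver and gut list of 5, miR-192-5p and miR-194-5p were tested and were higher in lavage cells at log2 fold changes of 1.67 (SE 0.32) and 1.68 (SE 0.31). Of the liver miRNA miR-122-5p there were 0 counts in cells and 20 in brushings, 16 of them in the untreated library.

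Some families that share a seed were split between the compartments. Among tested entries with a sequence, 33 seeds were shared by at least 2 entries, 94 in all. In 9 of these 33 families entries were called in both directions, and in 8 every entry was called in 1 direction. These counts are to be read against the 36.9% of all tested entries higher and 33.9% lower. The let-7 and miR-99/100 families are among the 9, and their higher calls were lost with DESeq2 size factors and with total counts. Some of the 33 families hold a miRNA under both a single and a joined name, such as miR-374b-5p. The seed GGCAGUG is shared by miR-34a-5p, a target of p53 present in many cell types, with the multiciliated miR-34b-5p, miR-449a-5p and miR-449c-5p. miR-34a-5p had 2080.0 to 5832 CPM in cells, median 3225, and 713, 963 and 688 CPM in brushings, the reverse of the other 3. Its log2 fold change was 2.24 (SE 0.33, edgeR adjusted p = 0.00010), against -3.29 (SE 0.37) for miR-34b-5p, -2.31 for miR-449a-5p and -2.33 for miR-449c-5p.
The seed AGCAGCA, of miRNAs that restrain the cell cycle, showed the widest split. miR-15b-5p, made with miR-16-2 from an intron of Smc4, was at 9833 to 22165 CPM in cells, median 14548, and at 1598, 1344 and 1510.0 CPM in brushings. No library of either group came near the other, at a log2 fold change of 3.35 (SE 0.30, edgeR adjusted p = 3.8e-06). miR-322-5p of the chromosome X cluster was 2.77 higher on the log2 scale (SE 0.34), with 1588 to 4096 CPM in cells and 439, 395 and 516 CPM in brushings.
miR-16-5p, which is made from 2 genes and not resolved to either, was 1.03 higher (SE 0.16), and miR-15a-5p 0.69 (SE 0.22), a call lost with DESeq2 size factors, with total counts and without any 1 of 5 libraries. miR-195a-5p and miR-497a-5p, made side by side on chromosome 11, were lower instead. miR-195a-5p held 18.9 to 468 CPM in cells, median 110, and 543, 1006 and 1231 CPM in brushings, a log2 fold change of -2.75 (SE 0.51, edgeR adjusted p = 0.00046). That of miR-497a-5p was -2.79 (SE 0.69).
Of the seed AGUGCAA, miR-130b-3p was 2.70 higher on the log2 scale (SE 0.37) and miR-130a-3p, a miRNA of endothelium and mesenchyme, 2.81 lower (log2 fold change -2.81, SE 0.29). miR-130a-3p had 255 to 1220 CPM in cells and 4454, 3696 and 4209 CPM in brushings. miR-130b-3p had 75.7 to 261 CPM in cells and 33.6, 13.2 and 31.2 CPM in brushings. Neither pair of ranges overlapped, and miR-301a-3p of the same seed was not called at 0.14 (SE 0.32). At its brushing levels miR-130b-3p could pass the filter only through the cells. With a minimum count of 50 the number of entries called higher in this list was 0.

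**Figure D4:**
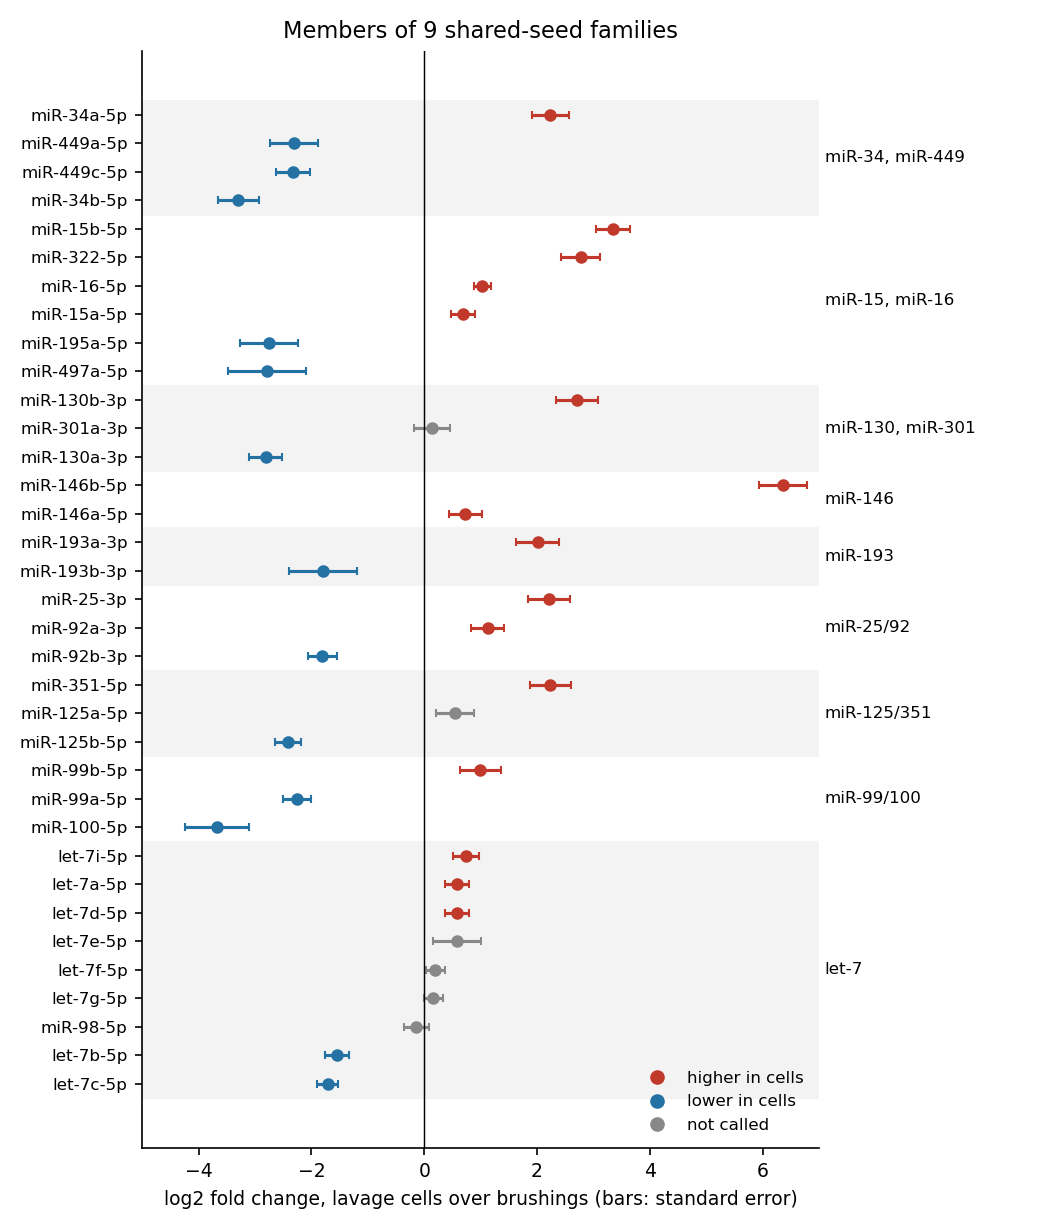
Log2 fold change of lavage cells over brushings (horizontal, bars are the standard error) for 9 families in which members share a seed, red where the entry was higher in cells, blue where lower, and grey where not called. Within the miR-34 and miR-449, miR-15 and miR-16, miR-130 and miR-301, miR-193, and miR-25 and miR-92 families the members stand on both sides of 0, while both miR-146 members stand on the same side, at 6.36 and 0.73.

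Other families split by smaller steps. miR-193a-3p was higher at a log2 fold change of 2.02 (SE 0.38) and miR-193b-3p lower at -1.80 (SE 0.59). miR-25-3p and miR-92a-3p were higher at 2.21 and 1.13, and miR-92b-3p lower at -1.81. miR-351-5p was higher at 2.24 and miR-125b-5p, a neighbour of miR-100 and let-7 genes, lower at -2.42, while miR-125a-5p was not called at 0.55 (SE 0.33).
miR-99a-5p and miR-100-5p were lower, at -2.26 and -3.68, and that of miR-100-5p was -4.51 without the untreated brushing library and -3.04 without the second immunized one. miR-99b-5p was called higher at 1.00 (SE 0.36) with TMM scaling and not with DESeq2 size factors or total counts, nor without any 1 of 6 libraries. In the let-7 family, which promotes differentiation, let-7c-5p and let-7b-5p were lower at -1.71 and -1.55 under every alternative. The 3 members called higher with TMM scaling, let-7a-5p, let-7d-5p and let-7i-5p, were not called with either other scaling, nor without any 1 of 4 to 6 libraries.
miR-30a-5p was lower at -2.25 (SE 0.26) and miR-30c-5p at -0.90 (SE 0.16), while miR-30d-5p and miR-30e-5p, from other genes, were not called at -0.06 and -0.20. miR-29c-3p and miR-29b-3p, which restrain collagen genes, were lower at -1.60 (SE 0.19) and -0.98 (SE 0.21). miR-29a-3p was not called with TMM scaling at -0.14 (SE 0.16), and was called lower with DESeq2 size factors at -0.38.

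Tested entries of the miR-322 and miR-503 cluster on chromosome X were higher in lavage cells. All 6 tested entries of a list of 8 were called, with a median log2 fold change of 2.69 and the highest for miR-503-5p. miR-503-5p held 177 to 330.2 CPM in cells and 8.39, 18.2 and 13.4 CPM in brushings, at 4.13 (SE 0.40, edgeR adjusted p = 4.8e-06). At such brushing levels an entry could pass the filter only through the cells, so the count of 6 is no support on its own. With a minimum count of 50 the number higher was 2. The miR-17-92 cluster and its paralogs, which favour proliferation, had 9 of 11 tested entries of 15 names higher and 0 lower, with a median of 1.19. The largest changes were in the Mcm7 intron cluster on chromosome 5, where miR-106b-3p, miR-25-3p and miR-93-5p were higher at 3.06 (SE 0.40), 2.21 (SE 0.37) and 1.94 (SE 0.30). The count of 9 was 6 with DESeq2 size factors, 3 without the untreated brushing library and 5 without the first immunized cell library. The list took 2.02% to 3.62% of cell counts and 1.15% to 1.35% of brushing counts. Its highest cell shares, 3.62% and 3.06%, were in untreated libraries 2 and 3, where red cell miRNAs took 50.9% and 48.5%. The part of red cells in this difference was not tested.
The 2 strands of the miR-106b hairpin were used in different proportion. The 5p strand made 81.8% to 92.4% of its counts in cells and 94.8% to 97.3% in brushings, ranges that did not overlap. Such ranges were apart for 4 of 56 hairpins with at least 50 counts in every library, 7.14%, and in the other 3, let-7g, miR-205 and miR-429, the rarer strand made up at most 1% of the counts in any library.
Of the Clcn5 intron list 4 of 7 were higher with TMM scaling and 2 with total counts, led by miR-532-5p at 2.08 (SE 0.33). The count was also 2 without any 1 of the immunized brushing libraries or the first untreated or first immunized cell library. Of the miR-23/27/24 list miR-27b-3p was lower at -1.10 (SE 0.18). miR-23a-3p, from the paralogous cluster on chromosome 8, was called higher at 0.98 (SE 0.23), and at 0.82 not called with total counts (edgeR adjusted p = 0.083), nor without the first immunized brushing library. Neither of the 2 tested entries of the Sfmbt2 intron, miR-669a-3p or miR-669o-3p at -0.51 and miR-467a-5p or miR-467b-5p at 0.02, was called.

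Whether the gap between lavage cells and brushings differs with allergy was asked in a joint fit with 7 cell and 3 brushing libraries of allergic mice, whose injections were as above and whose 20 ul challenges held 50 ug of ovalbumin. CPM values in this fit are scaled over all 20 libraries and differ from those above. The difference of the log2 fold changes, allergic minus non-allergic, passed for 38 of 301 entries (12.6%), 21 higher and 17 lower in allergic mice. The split depends on the scaling, with 6 higher and 16 lower with total counts, 22 in all, and 15 higher and 21 lower with DESeq2 size factors. The count was 25 without the second allergic brushing library, while the other single-library removals gave 26 to 50. Epithelial and multiciliated entries made up 9 of the 17 lower ones, 6 of the 15 epithelial and 3 of the 6 multiciliated entries, and 1 epithelial entry, miR-203-3p, was among the higher ones. miR-205-5p had 248 to 675 CPM in allergic cells and 8511 to 20036 CPM in allergic brushings, and 1026 to 3499 CPM in non-allergic cells and 8520.0 to 19355 CPM in non-allergic brushings. The cells did not overlap between the states and the brushings did, with a difference of -2.17 (SE 0.46, edgeR adjusted p = 0.0091).
Among the higher ones were 3 of 12 tested leukocyte entries, miR-150-5p, miR-155-5p and miR-142a-3p. The miR-17-92 list had 5 of 14 higher and the Sfmbt2 intron list 3 of 4, against 21 of 301 over all entries. Without the allergic libraries 11 and 2 entries of these 2 lists passed the filter. miR-363-3p, miR-20b-5p and miR-106a-5p, with 4, 8 and 6 counts over the 7 non-allergic cell libraries, passed only with the allergic ones. Entries can thus pass through the group where they are high, so these 2 counts are no support on their own. miR-150-5p held 16172 to 38390 CPM in allergic cells and 426 to 1070 CPM in allergic brushings, against 576 to 2853 CPM in non-allergic cells and 335 to 371 CPM in non-allergic brushings. The difference was 2.74 (SE 0.49, edgeR adjusted p = 0.0018).
miR-20b-5p of the miR-106a-363 cluster had 100.2 to 294 CPM in allergic cells, 0 to 8.17 in allergic brushings, 0 to 32.3 in non-allergic cells and 11.5 to 23.97 in non-allergic brushings. The allergic cells were above every other library, with a difference of 5.57 (SE 0.91, edgeR adjusted p = 0.0015), and miR-363-3p of the same cluster had 58.0 to 100.3 CPM in allergic cells and 0 in every allergic brushing. The shares of 2 other marker lists are given beside these results. The red cell list took 5.53% to 50.6% of the counts in allergic cells and 17.1%, 0.787% and 3.03% in the 3 allergic brushings, against 8.16% to 50.9% in non-allergic cells and 0.177% to 0.732% in non-allergic brushings. None of its 5 tested entries passed, with a median difference of -2.94. The mesenchymal and muscle list took 0.871% to 4.98% of allergic brushings and 3.31% to 11.2% of non-allergic ones. Of its entries 0 of 11 passed, with a median difference of -1.67. The part of these cells in the allergy differences was not tested. None of the 10 tested Mrc1 and Htr2c intron entries passed, with a median difference of -2.06 against 0.06 over all tested entries. Their share of the counts was 0.0447% to 0.306% in allergic cells and 0.0011% to 0.0027% in allergic brushings. In non-allergic cells it was 0.130% to 1.02%. A gap that did not pass is not shown to be unchanged. A difference of the gap between untreated and immunized mice, which rests on 1 untreated brushing library, passed for 0 of 271 entries in edgeR and in DESeq2, with 6 at an unadjusted p under 0.05 in edgeR.

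**Figure D5:**
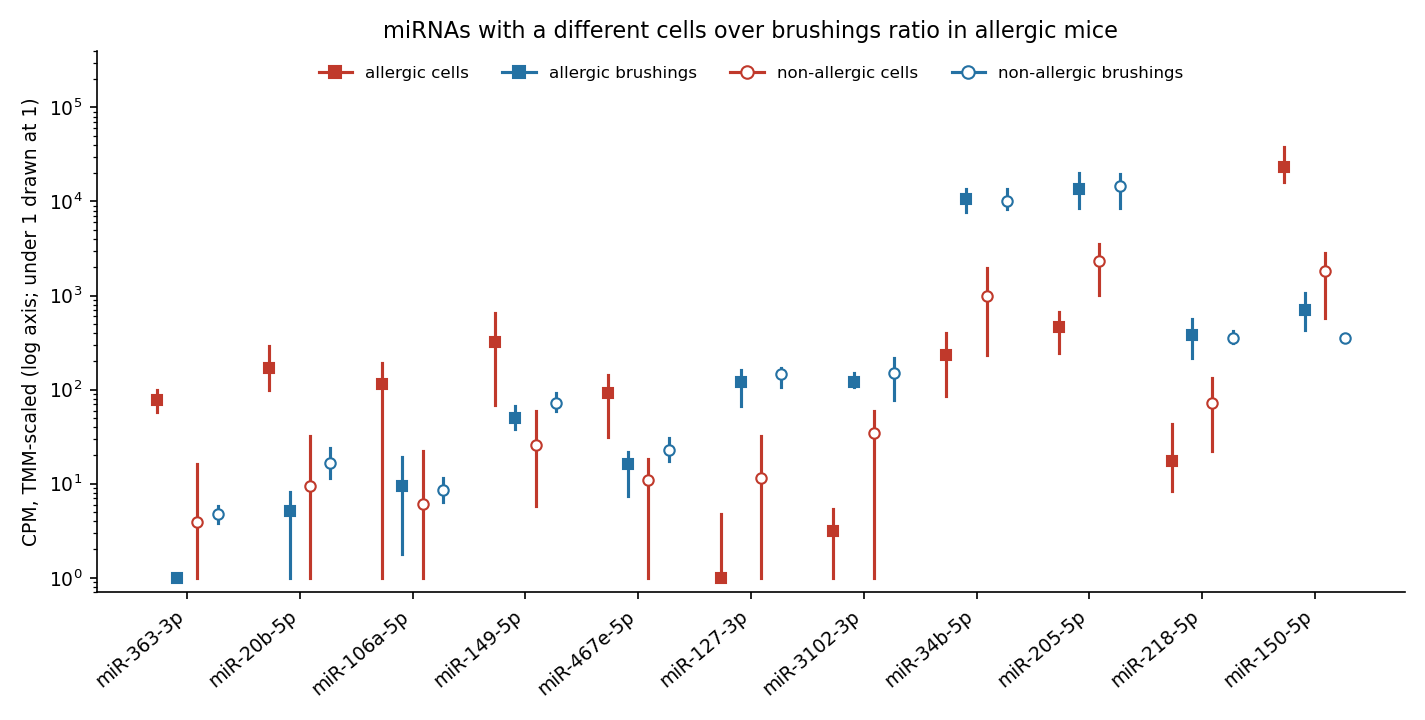
Mean (symbol) and lowest to highest level (line) in CPM on a log axis for the 10 miRNAs named by the rule for this comparison and miR-150-5p, in allergic cells and brushings (filled squares) and non-allergic cells and brushings (open circles), cells in red and brushings in blue. For the first 5 and for miR-150-5p the mean of the allergic cells stands above that of the non-allergic cells, and for miR-127-3p to miR-218-5p below it.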

How the data were processed

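Expected counts per miRNA were deposited by the authors in 3 tables, 1 per library set (2, 3 and 4). Per the submitters' processing notes cutadapt, DESeq2 and the mm10 build were used; no aligner is named in them (not given in the sources used here). A deposited table normalized by the authors was not used. Of the values 4.41% were not whole, so the expected counts were rounded, which was not foreseen in the plan. Hairpin entries held 0.0169% of the counts. Every column matched a labelled library.

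Cells were compared with brushings in edgeR 4.0.16 (R 4.3.3): filterByExpr at a minimum count of 10, TMM scaling, the quasi-likelihood test with the library set as a term, and Benjamini-Hochberg adjustment over all 271 entries. Fold changes are cells over brushings on the log2 scale, with an SE found by dividing the fold change by the square root of F. "Called" means an adjusted p under 0.05. The allergic fit had 301 entries. The scripts were tested on simulated data. Positions are from GENCODE for mm10, 1-based.

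Named miRNAs are the 15 highest and 15 lowest called fold changes with at least 100 CPM in the higher compartment and the same sign in each set, the 10 most abundant entries per compartment, list members, and, for allergy, the 5 highest and 5 lowest. Entries outside these, miR-193, miR-34a-5p and miR-92b-3p among them, were named from the seed families after their values were seen. The members and lists were chosen with earlier results of these data known. Alternatives were DESeq2 1.42.0 and its size factors, total count scaling, no filter or a minimum count of 50, no set term, immunized libraries only, a replicate block, red cell entries left out (added later), and each library left out. No label states if libraries of the same number in both compartments came from the same mice, so they were not treated as pairs. Their deviations from the compartment means correlated at r = 0.0753, 0.191 and -0.0627. The last value joins a brushing library of set 4 with a cell library of set 3. So few values cannot decide if the libraries are pairs.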

Additional observations from a re-analysis of the deposited data

Results flagged for a closer look

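A gap test for a single far library (Dixon's, critical value 0.568 for 7 libraries) was run for 48 values over the 7 cell libraries. Of these values 13 were flagged. Chance flags about 1 in 20 where values are independent and normally spread. The 48 values are not independent, as strands of a hairpin, cluster partners and list shares are counted together. The count of 13 thus cannot be read against that rate. In 11 of the 13 the far library was immunized library 4, lying above the others. In that library miR-143-3p had 4663 CPM (next highest 416), miR-143-5p 116 (9.45), miR-145a-5p 5669 (711), miR-145a-3p 88.1 (9.31), miR-1a-3p 964 (302.5), miR-133a-3p 1029 (151), miR-133b-3p 64.9 (9.46), miR-126a-3p 1659 (265) and miR-126a-5p 292 (56.7). The mesenchymal and muscle list took 1.33% of its counts (next highest 0.144%) and the endothelial list 0.203% (0.0255%). Its epithelial share of 3.66% and leukocyte share of 7.52% lay within the range of the other cell libraries. The remaining flags were miR-136-5p, at 37.8 CPM in the second untreated cell library (next 9.46), and miR-448-3p, at 325 CPM in the first untreated cell library (next 167), which was the shallowest at 43083 counts.

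The gap between cells and brushings differed with allergy, by the test of the difference itself, for the 10 entries named by rule. The log2 difference, allergic minus non-allergic, was 7.76 for miR-363-3p, 5.57 for miR-20b-5p, 3.95 for miR-106a-5p, 3.68 for miR-149-5p and 3.25 for miR-467e-5p. It was -3.32 for miR-127-3p, -3.18 for miR-3102-3p, -2.19 for miR-34b-5p, -2.17 for miR-205-5p and -2.15 for miR-218-5p. For miR-363-3p no allergic brushing held a count, so its fitted difference is no bound. The entries miR-363-3p, miR-20b-5p, miR-106a-5p and miR-467e-5p passed the filter only with the allergic libraries included. miR-363-3p, miR-20b-5p, miR-149-5p and miR-205-5p passed under all 25 alternatives. miR-127-3p failed in 13 of them and miR-106a-5p in 6. miR-34b-5p and miR-218-5p failed without the second allergic brushing library (-1.90 and -1.93), and miR-467e-5p without the second immunized one (2.74). With a replicate block miR-34b-5p (-0.89, edgeR adjusted p = 0.26), miR-218-5p (-1.69, 0.10), miR-3102-3p (-2.45, 0.10) and miR-127-3p (-4.43, 0.076) failed.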

How the results depend on the processing

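The number of called entries was 192, and 128 (minimum count 50) to 248 (no filter) under the alternatives. Leaving out 1 library gave 160 to 195. Without a filter 164 entries were lower, and 33.9% of the called entries were higher, against 52.1% with it. With DESeq2 size factors 43.4% and with total counts 44.6% were higher. With a minimum count of 50 there were 66 higher. With immunized libraries only, 1 endothelial entry was called lower. The count of entries whose gap differed with allergy was 22 with total count scaling and 25 to 50 with 1 library left out, against 38. With the replicate block it was 48, of which 23 were among the 38, and without a filter 52, of which 30 were. The replicate block gave 185 called entries, 173 of them shared. In it only cell libraries with the treatment and replicate number of a brushing library bear on the fold change. Under the block miR-145a-5p was not called (-5.85) and miR-27a-3p changed sign to 0.0819 (edgeR adjusted p = 0.68), while miR-21a-5p and miR-24-3p were called, at 0.29 and 0.54. miR-21a-5p changed sign, and was not called, with DESeq2 size factors (-0.0154), the DESeq2 test (-0.0155) and no filter (-0.19), and over single-library removals it lay between -0.0916 and 0.29 (called at 0.2925 without untreated cell library 2). miR-24-3p did so without a filter (-0.0965) and without immunized brushing library 1, its removals lying between -0.00759 and 0.388, where it was called (without untreated cell library 2, edgeR adjusted p = 0.044). For miR-21a-5p and miR-24-3p the cause was not tested. The depth of the cell libraries, where 3 counts are worth up to 69.6 CPM, limits what can be said of miRNAs that are rare in cells.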
